A study of Bos taurus with 12 samples.

Results

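Sperm small RNA of Holstein Friesian bulls was compared between 10 and 12 months of age, within the same 4 bulls. The 8 libraries of these ages were taken from the 12 libraries of a series that also sampled each bull at 16 months. Ejaculates obtained with an artificial vagina had been stored frozen, and the content of 5 straws was pooled for each bull and age, so that a library averages many spermatozoa of 1 animal. The study regarded 10 months as before puberty and 12 months as around puberty. The labels name no treatment, and the comparison is within animals. Each age was therefore represented by 4 libraries, 1 from each of bulls 1 to 4.

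Mature spermatozoa are nearly silent in transcription and carry a small load of RNA, much of it short fragments of longer RNAs. A microRNA (miRNA) is cut from a hairpin precursor to a short mature strand, which directs repression of matching messenger RNAs. Fragments of transfer RNAs (tRNAs), the adapters that carry amino acids to the ribosome, are a further known class of sperm small RNA.

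The reference to which reads had been assigned listed 5481 sequences. Of these, 811 were miRNA hairpins, 784 were mature miRNAs, 61 were tRNAs, all but 1 named for an amino acid and anticodon, and 3825 were other non-coding transcripts known only by an Ensembl identifier. At least 1 count in the 8 libraries was found for 796 hairpins, 285 mature miRNAs, 60 tRNAs and 3491 other transcripts, 4632 sequences in all. Only 35 mature miRNAs averaged at least 10 counts per library, against 667 hairpins, 58 tRNAs and 2709 other transcripts. Total counts per library lay between 2167864 and 5119360 at 10 months and between 3306357 and 3853639 at 12 months.

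The 10-month library of bull 4 stood apart from the other 10-month libraries in its abundant sequences. A chi-square statistic per degree of freedom, computed between the counts of pairs of libraries and weighted towards abundant sequences, was 26.6 to 64.9 between that library and the 4 libraries of 12 months. The same statistic was 282 to 375 between that library and the 10-month libraries of bulls 1, 2 and 3, which differed from each other by 61.7 to 171. Over ranks it stood apart much less. Its Spearman correlation across 3469 sequences was 0.885 to 0.915 with the other 10-month libraries and 0.914 to 0.937 with the 12-month libraries, and those of the other 10-month libraries with each other were 0.906 to 0.940. For this reason the main results are also given without bull 4, both of whose libraries were then left out. Leaving out each bull in turn was the plan, and bull 4 was singled out after these values had been seen.

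The labels name the cells as spermatozoa. Hairpins of mir-34 and mir-449, a family abundant in meiotic and later male germ cells, were summed in normalized CPM. These are read counts scaled by the library total and a TMM factor for each library. The sums were 38.5 to 59.1 CPM at 10 months and 44.6 to 71.3 CPM at 12 months. Scaled by library totals alone, they were 44.7 to 94.1 at 10 months and 34.5 to 62.3 at 12 months. Which age had the higher range thus depended on the scaling. The 7 mature entries of this family were at 0 in all 8 libraries. The study's methods include a lysis of somatic cells. Marker hairpins of other cells were present as well, and none of those listed was at 0 in all 8 libraries. Hairpins known from white blood cells summed to 138 to 274 CPM at 10 months and 124 to 209 CPM at 12 months, those of red blood cells to 185 to 877 and 66.1 to 272 CPM, those of epithelium to 194 to 487 and 140 to 275 CPM, those of stroma to 267 to 741 and 622 to 773 CPM, and those of striated muscle to 497 to 3041 and 340 to 3119 CPM. In such pooled samples, fewer cells of a type and less RNA per cell cannot be told apart.

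Hairpins, tRNAs and the most abundant transcript differed between the ages in 1 direction in bulls 1, 2 and 3 and in the other in bull 4, whereas the small share of mature miRNAs was lower at 12 months in all 4 when taken over all counts. Other transcripts held most counts at both ages. miRNA hairpins took 7.73%, 2.54%, 4.71% and 2.46% of the counts in bulls 1 to 4 at 10 months and 2.92%, 1.58%, 2.14% and 2.90% at 12 months. The share was thus lower at 12 months in bulls 1, 2 and 3 and higher in bull 4, and the ranges of both ages overlapped. The mean was 4.36% ± 2.48 at 10 months and 2.39% ± 0.649 at 12 months (SD, n = 4), a within-bull difference of -1.97 percentage points with an SD of 2.25 (exact two-sided permutation test over the 16 sign patterns, p = 0.25). Without bull 4 the difference was -2.78 percentage points. The smallest p that this test can give with 4 bulls is 0.13, so that no share could pass a threshold of 0.05.

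Mature miRNAs took 0.176%, 0.0547%, 0.111% and 0.0785% of the counts at 10 months and 0.0687%, 0.0427%, 0.0489% and 0.0770% at 12 months. Their share was lower at 12 months in 4 of 4 bulls, by a narrow margin in bull 4 (exact permutation p = 0.13, from 2 of the 16 sign patterns and the smallest possible, and 0.25 after Benjamini-Hochberg adjustment over 5 shares). Without the 10 most abundant sequences in the total it was lower in 3 of 4 bulls and higher in bull 2, with a difference of -0.0417 percentage points (exact permutation p = 0.25). Within the miRNA counts the balance of mature and hairpin entries was close at both ages, with mature entries at 2.43% ± 0.451 at 10 months and 2.44% ± 0.203 at 12 months (SD, n = 4, exact permutation p = 0.875).

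tRNAs took 3.16%, 2.32%, 2.93% and 1.49% of the counts at 10 months and 1.67%, 1.69%, 1.60% and 1.75% at 12 months. The 10-month libraries of bulls 1, 2 and 3 lay above every 12-month library and that of bull 4 lay below all of them. The mean was 2.48% ± 0.747 at 10 months and 1.68% ± 0.0627 at 12 months (SD, n = 4), a difference of -0.798 percentage points (exact permutation p = 0.25), or -1.15 without bull 4. The spread between bulls was narrower at 12 months for both hairpins and tRNAs, and that narrowing was not tested.

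**Figure D1:**
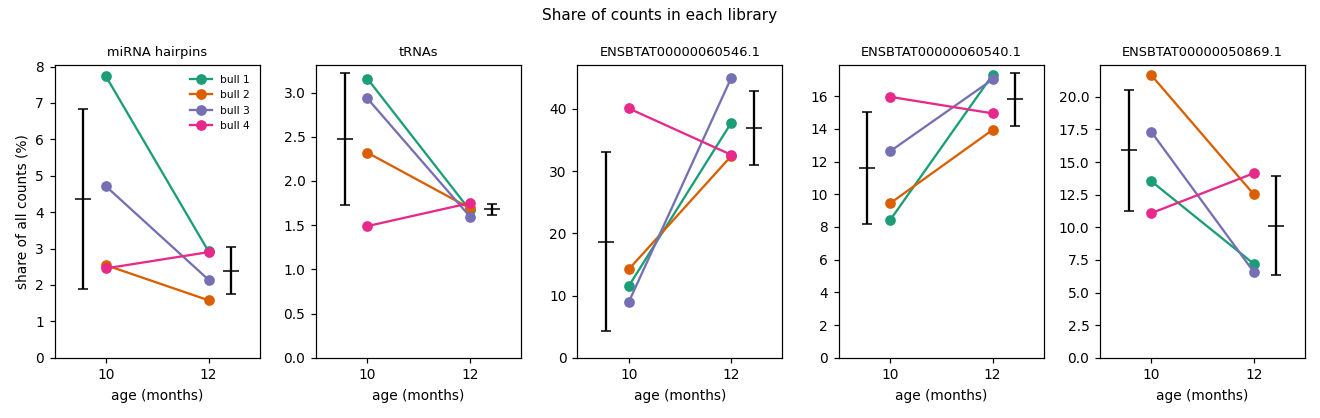
Share of all counts (%) held by miRNA hairpins, tRNAs and the 3 most abundant other transcripts at 10 and 12 months, 1 line per bull, with the mean and SD of each age beside the points (n = 4). Lines of bulls 1, 2 and 3 run together in each panel, and the line of bull 4 runs the other way.

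A single transcript held much of the difference in composition. ENSBTAT00000060546.1, the most abundant sequence of the data, held 11.5%, 14.2%, 8.93% and 40.1% of the counts in bulls 1 to 4 at 10 months and 37.7%, 32.4%, 45.0% and 32.6% at 12 months. Bulls 1, 2 and 3 had low shares at 10 months and high shares at 12 months, whereas bull 4 was high at both ages. The mean was 18.7% ± 14.4 at 10 months and 36.9% ± 5.90 at 12 months (SD, n = 4), a within-bull difference of 18.3 percentage points with an SD of 18.6 (exact permutation p = 0.25), and of 26.8 percentage points without bull 4. At 16 months the same bulls had shares of 10.3% to 32.2%.

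The next most abundant transcripts divided in direction. ENSBTAT00000060540.1 held 8.41%, 9.44%, 12.6% and 16.0% at 10 months and 17.3%, 13.9%, 17% and 14.9% at 12 months, higher at 12 months in bulls 1, 2 and 3. ENSBTAT00000050869.1 was the reverse, with 13.5%, 21.7%, 17.3% and 11.1% at 10 months and 7.19%, 12.5%, 6.57% and 14.2% at 12 months. It was lower in bulls 1, 2 and 3 and higher in bull 4. ENSBTAT00000060574.1 held 9.18% to 13.8% at 10 months and 8.01% to 12.4% at 12 months, and ENSBTAT00000060557.1 held 1.99% to 6.17% and 1.46% to 3.74%. None of these 4 shares passed the test (exact permutation p = 0.25 to 0.375, adjusted p = 0.333 to 0.375 over the 4).

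Counts were more concentrated in few sequences at 12 months in bulls 1, 2 and 3. The same 5 sequences, those with the highest mean share over the 8 libraries, were summed in each library. They held 49.9%, 65.2%, 54.3% and 78.3% of the counts at 10 months and 76.1%, 74.1%, 78.2% and 74.6% at 12 months. At 10 months 275, 88, 185 and 49 sequences were needed to make up 90% of the counts, and at 12 months 55, 49, 47 and 61. Bull 4 at 10 months, with 49, lay within the range of the 12-month libraries (exact permutation p = 0.25).

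Once ENSBTAT00000060546.1 was left out of the total, the class shares came closer together. Hairpins then held 8.73%, 2.96%, 5.17% and 4.10% at 10 months and 4.69%, 2.34%, 3.89% and 4.31% at 12 months, a difference of -1.43 percentage points (exact permutation p = 0.25). tRNAs held 3.57%, 2.70%, 3.22% and 2.49% at 10 months and 2.68%, 2.50%, 2.90% and 2.60% at 12 months, a difference of -0.324 percentage points. For tRNAs the direction itself depended on this choice, since without the 10 most abundant sequences the difference was 0.365 percentage points (exact permutation p = 0.375).

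Fewer different other transcripts were seen at 12 months at equal total depth. When all libraries were reduced by expectation to the smallest total, 3353, 3300, 3310 and 3287 other transcripts were expected at 10 months and 3282, 3253, 3258 and 3281 at 12 months. The number was lower in 4 of 4 bulls and the ages did not overlap (exact permutation p = 0.13, adjusted p = 0.40 over 8 detection measures). Mature miRNAs numbered 190, 168, 174 and 149 at 10 months and 154, 131, 136 and 158 at 12 months, lower in bulls 1, 2 and 3 and higher in bull 4. Hairpins numbered 789, 787, 786 and 779 at 10 months and 780, 779, 778 and 783 at 12 months, with the same division between bulls. The total was matched and not the depth within a class, and ENSBTAT00000060546.1 took up to 45.0% of it.

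Single sequences were then compared with edgeR's quasi-likelihood test with the bull as a block, which fits all 4632 sequences, and log2 fold changes are given as 12 over 10 months on TMM-normalized counts. At a Benjamini-Hochberg adjusted p under 0.05, 24 sequences differed, 0.518% of those tested. Of these, 13 were higher at 12 months (0.281%) and 11 were lower (0.237%). They comprised 8 hairpins, 3 higher and 5 lower, and 16 other transcripts, 10 higher and 6 lower, with no mature miRNA and no tRNA among them. The split of hairpins was not stable. It was 6 higher and 3 lower with DESeq2, 5 and 1 without bull 1, 2 and 4 without bull 2, and 0 and 71 with library totals. An unadjusted p of 0.05 was reached by 13 mature miRNAs (4.56%) and 1 tRNA (1.67%), against 10.3% of all sequences. DESeq2 with the bull as a term gave no adjusted p for 275 of the 285 mature miRNAs and 15 of the 60 tRNAs and called none of the rest. These calls rested on the pairing and on which sequences were tested. Without the bull as a block edgeR called 0. An unadjusted p of 0.05 was then reached by 258 sequences (5.57%), against 10.3% with the block. With edgeR's filterByExpr, which left 3717 sequences, it called 1.

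The study's own threshold asked for a 1.5-fold change and a p not above 0.05, and was applied here to unadjusted p. By this rule 324 sequences passed (6.99%), 175 higher (3.78%) and 149 lower (3.22%) at 12 months. Of 796 hairpins, 31 were higher (3.89%) and 60 lower (7.54%). Of 285 mature miRNAs, 2 were higher (0.702%) and 9 lower (3.16%), the latter a share close to that of all sequences. Of 3491 other transcripts, 4.04% were higher and 2.29% lower, and 1 of 60 tRNAs passed. This split depended on scaling, because scaling by library totals in place of TMM moved the median log2 fold change over the tested sequences from -0.00 to -0.52 and gave 12 higher (0.259%) and 1202 lower (25.9%), 26.2% in all. Changes of single sequences are therefore changes relative to the bulk of the sequences. The groups did not overlap for 122 sequences (2.63%), 60 higher (1.30%) and 62 lower (1.34%). Over the 70 equal splits of 8 libraries, full separation of a sequence has a probability of 0.0286 by chance. The share found does not exceed this.

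**Figure D2:**
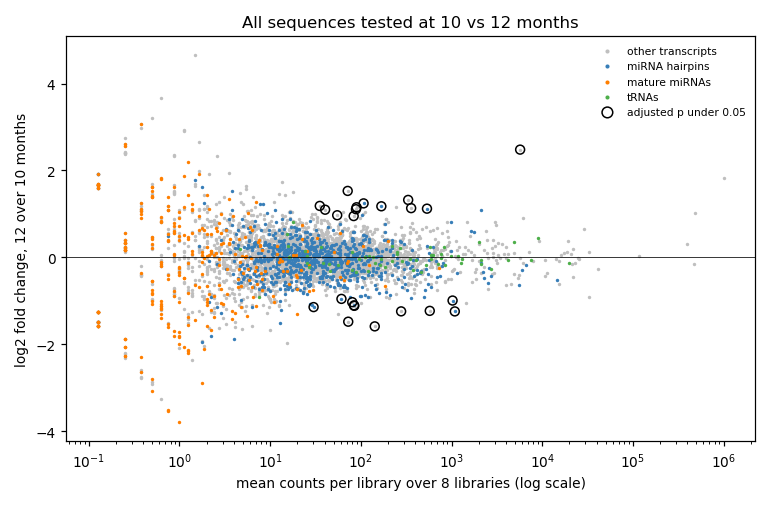
Log2 fold change (12 over 10 months) of each of the 4632 sequences against its mean count per library on a log scale, coloured by class, with circles on the 24 sequences at an adjusted p under 0.05. The circled points lie at means of 30.1 counts or more, and the mature miRNAs crowd at the left, at few counts.

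The 5 hairpins lower at 12 months had adjusted p of 0.0257 to 0.0471, and none of them was called with filterByExpr, with at least 10 counts in total or with all 12 libraries. The largest of these fold changes belonged to bta-mir-144. bta-mir-144, a hairpin known from red blood cell precursors, had 3065, 899, 2034 and 653 counts in bulls 1 to 4 at 10 months and 725, 163, 453 and 708 counts at 12 months. After normalization it was lower at 12 months in bulls 1, 2 and 3 and higher in bull 4, and the ages overlapped. Its log2 fold change was -1.24 (SE 0.28, adjusted p = 0.0324), and -1.73 without bull 4 (adjusted p = 2.16e-08). Without bull 1, 2 or 3 it lay between -1.12 and -1.04 and was not called. Its genomic neighbour bta-mir-451, also an erythroid hairpin and listed next to it in RefSeq's annotation of assembly ARS-UCD2.0, had 7 to 22 counts per library and a log2 fold change of -0.16 (SE 0.36, adjusted p = 0.940). The remaining erythroid hairpin of the list, bta-mir-486, stood at 0.01 (SE 0.23).

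bta-mir-211, which lies in a gene of pigment cells in mammals, was measured at 605, 320, 415 and 196 CPM at 10 months and 190, 170, 182 and 171 CPM at 12 months. It was lower in 4 of 4 bulls, the ages did not overlap, and bull 4 moved least. The log2 fold change was -0.99 (SE 0.23, adjusted p = 0.0471), and -1.26 without bull 4, the only bull without which it was still called. The 12-month libraries were close to each other, at 178 ± 9.61 CPM against 384 ± 173 CPM at 10 months (SD, n = 4).

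bta-mir-19b-2 is a hairpin of the mir-106a cluster, a paralog of the mir-17-92 cluster known for its part in cell proliferation. It had 33.2, 25, 39.3 and 27.9 CPM at 10 months and 18.1, 14.1, 7.53 and 19.2 CPM at 12 months. It was lower in 4 of 4 bulls without overlap, with a log2 fold change of -1.11 (SE 0.24, adjusted p = 0.0257), of -1.30 without bull 4 and of -0.75 without bull 3, where the call was lost. The second hairpin for this mature strand, bta-mir-19b, stood at 0.05 (SE 0.29, adjusted p = 0.982) on 10 to 27 counts, and whether the pair shares reads is not known.

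The 5 neighbours of bta-mir-19b-2 in its cluster did not move as a block. bta-mir-20b had a log2 fold change of -0.57 (SE 0.22, adjusted p = 0.289), bta-mir-18b one of -0.26, bta-mir-363 one of 0.32 and bta-mir-92a-2 one of 0.59. bta-mir-106a stood at -1.87 (SE 0.80) on 0 to 14 counts. None of the 5 passed the adjusted threshold, and 2 had an unadjusted p under 0.05, which 14.7% of hairpins and 10.3% of all sequences reached.

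bta-mir-133a-2, one of the hairpins of the muscle miRNA miR-133a, had 16.6, 10.8, 10.7 and 7.05 CPM at 10 months and 5.31, 4.70, 3.77 and 6.07 CPM at 12 months. It was lower in 4 of 4 bulls and the ages did not overlap. The log2 fold change was -1.15 (SE 0.26, adjusted p = 0.0344), and -1.45 without bull 4, and the call was lost without bull 1 or bull 3. It rested on 25 to 59 counts at 10 months and 11 to 19 at 12 months. The second copy, bta-mir-133a-1, which may share reads with it, had -0.52 (SE 0.22, adjusted p = 0.380), and bta-mir-1-2, the muscle hairpin beside bta-mir-133a-2, had 0.22 (SE 0.24).

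bta-mir-541, a member of a large imprinted miRNA cluster of mammals, had 28.5, 22.4, 23.0 and 14.1 CPM at 10 months and 10.6, 9.40, 11 and 13.4 CPM at 12 months. It was lower in 4 of 4 bulls without overlap, although bull 4 changed little, and its log2 fold change was -0.96 (SE 0.22, adjusted p = 0.0466), or -1.25 without bull 4, and it was not called without any 1 of the other bulls or with DESeq2 (adjusted p = 0.100). Of its 46 neighbours, joined by gaps of at most 10 kb, 19 had positive and 27 negative fold changes with a median of -0.05. None of the 46 was called at an adjusted p under 0.05. An unadjusted p under 0.05 was reached by 7, all of them lower at 12 months, where 14.7% of hairpins and 10.3% of all sequences reached it in either direction. Without bull 4, 4 of the 46 were called, all lower, where 8.04% of hairpins and 3.43% of all sequences were called lower. They were bta-mir-323, bta-mir-758, bta-mir-154a and bta-mir-3957, the last 3 named after their values were seen.

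The 3 hairpins higher at 12 months belonged to large bovine families or to single entries. bta-mir-2285aa, of the ruminant mir-2284 and mir-2285 family, had 24.5, 18.8, 24.6 and 64.6 CPM at 10 months and 91.0, 47.0, 47.9 and 96.2 CPM at 12 months. It was higher in 4 of 4 bulls, and the ages overlapped only through bull 4 at 10 months. The log2 fold change was 1.18 (SE 0.22, adjusted p = 0.0111), and 1.40 without bull 4. The call was lost without bull 1 (0.94, adjusted p = 0.0896) and with library totals (0.66, adjusted p = 0.206), as it was for all 3 of these hairpins with filterByExpr (adjusted p = 0.0669 to 0.130) and without the replicate block (adjusted p = 0.843 to 0.883).

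bta-mir-584-7 had 107, 56.0, 83.6 and 192 CPM at 10 months and 215, 157, 232 and 276 CPM at 12 months, again higher in 4 of 4 bulls with bull 4 high at both ages. Its log2 fold change was 1.12 (SE 0.22, adjusted p = 0.0128), and 1.32 without bull 4. The call was lost without bull 2 (adjusted p = 0.0513), without bull 3 (adjusted p = 0.0885) and with library totals (0.59, adjusted p = 0.296). The 7 other bta-mir-584 hairpins, bta-mir-584-1 to bta-mir-584-6 and bta-mir-584-8, lay between -0.52 and 0.17 and none was called. How reads matching more than 1 copy were divided was not stated, so the value of any 1 copy is uncertain.

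bta-mir-2482 had 12.1, 16.4, 8.55 and 51.3 CPM at 10 months and 35.0, 49.3, 34.9 and 52.8 CPM at 12 months. It was higher in 4 of 4 bulls, by 1.49, 1.56 and 1.97 on the log2 scale in bulls 1, 2 and 3 and by 0.04 in bull 4. The fitted log2 fold change was 1.24 (SE 0.25, adjusted p = 0.0169), and 1.70 without bull 4. The call was lost without bull 3 (1.02, adjusted p = 0.124), with at least 10 counts in total (adjusted p = 0.0812) and with library totals (0.75, adjusted p = 0.143). The mature entries of all 8 called hairpins held 0 to 5 counts per library, and those of bta-mir-211, bta-mir-2482 and bta-mir-584-7 held none, so the change could be followed only in the hairpin entries. A count of 0 allows up to 3 counts in a library, which covers counting error only.

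**Figure D3:**
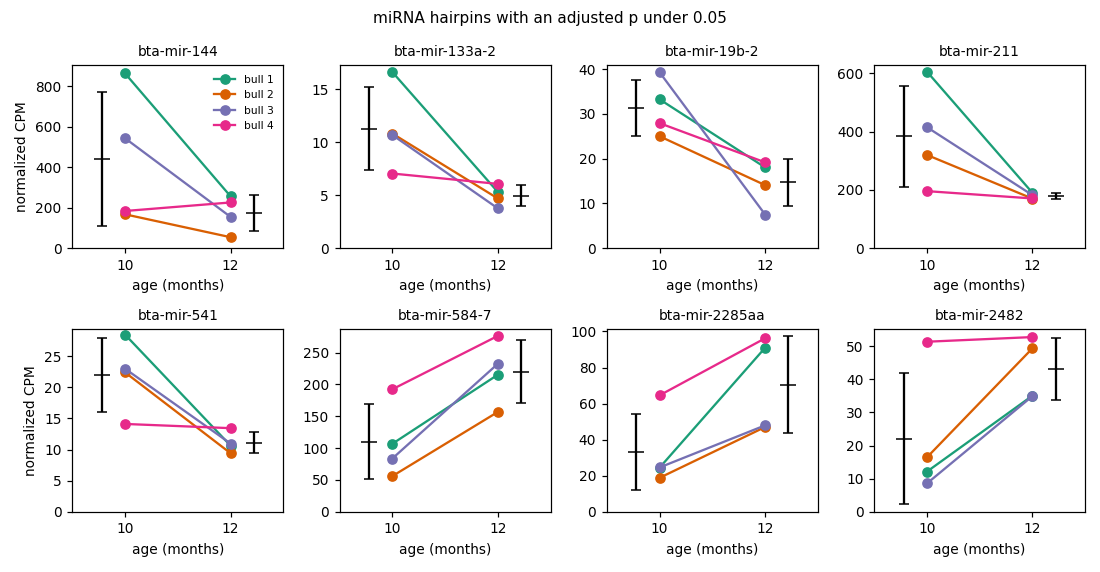
Normalized CPM of the 8 miRNA hairpins at an adjusted p under 0.05 at 10 and 12 months, 1 line per bull, with the mean and SD of each age (n = 4). The line of bull 4 is flatter than those of the other bulls in every panel but that of bta-mir-2285aa, and for bta-mir-144 it rises while the others fall.

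Among the called other transcripts the largest log2 fold change belonged to ENSBTAT00000062960.1. It held 2428, 2124, 298 and 8493 counts in bulls 1 to 4 at 10 months and 9142, 8109, 5424 and 9689 counts at 12 months. Bull 3 was lowest and bull 4 highest at 10 months, and only bull 4 reached the range of the 12-month libraries. The log2 fold change was 2.48 (SE 0.42, adjusted p = 0.00555), from 1.82 without bull 3 to 3.15 without bull 4, and it narrowly lost the call with DESeq2 (adjusted p = 0.0503).

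ENSBTAT00000059806.1 rose from 5.07, 8.96, 11.5 and 20.9 CPM to 27.6, 21.5, 56.5 and 26.5 CPM, without overlap, with a log2 fold change of 1.53 (SE 0.26, adjusted p = 0.00555). ENSBTAT00000065829.1 went from 63.4, 34.7, 34.5 and 123 CPM to 160, 151, 94.5 and 163 CPM, with 1.32 (SE 0.24, adjusted p = 0.00681), a call lost with library totals (0.79, adjusted p = 0.170). Both were higher at 12 months in 4 of 4 bulls. The other higher calls named by the rule, ENSBTAT00000063839.1, ENSBTAT00000060840.1, ENSBTAT00000065761.1, ENSBTAT00000041064.1, ENSBTAT00000063000.1 and ENSBTAT00000042260.1, had log2 fold changes of 0.95 to 1.18. With library totals none of these 6 was called (0.42 to 0.65, adjusted p = 0.187 to 0.363). Over the 4 fits that each left out 1 bull, ENSBTAT00000060840.1 was called in 4, ENSBTAT00000063839.1 in 3, ENSBTAT00000065761.1 and ENSBTAT00000041064.1 in 2, and the last pair in 1. ENSBTAT00000041064.1 was also not called with DESeq2 (adjusted p = 0.0687). Of the 6 only ENSBTAT00000060840.1 did not overlap between ages, and ENSBTAT00000042260.1 was higher in 3 of 4 bulls. The remaining higher call, ENSBTAT00000063054.1, fell outside the number of names set by the rule and had 1.13 (SE 0.25, adjusted p = 0.0312).

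ENSBTAT00000062556.1 had the smallest p of all sequences. It fell from 33.8, 26.1, 41.9 and 12.7 CPM at 10 months to 15.2, 6.04, 12.7 and 6.71 CPM at 12 months, lower in 4 of 4 bulls, and the ages overlapped through bull 4 at 10 months. Its log2 fold change was -1.48 (SE 0.22, adjusted p = 0.00206), and it was the only sequence that was also called with filterByExpr (adjusted p = 0.0464).

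ENSBTAT00000059742.1 fell from 139, 118, 140 and 24.5 CPM to 54.5, 35.9, 59.6 and 16.6 CPM, with -1.24 (SE 0.22, adjusted p = 0.00586). ENSBTAT00000059669.1 had the most negative value among the called sequences, -1.59 (SE 0.33, adjusted p = 0.0177), but was lower in only 3 of 4 bulls, and the call was lost without bull 3 (adjusted p = 0.124) and with DESeq2 (adjusted p = 0.313). Its values of 16.6, 107, 86.8 and 8.18 CPM at 10 months and 9.91, 13.8, 19.2 and 9.59 CPM at 12 months show that bulls 2 and 3 carried the difference. The remaining lower calls, ENSBTAT00000061835.1, ENSBTAT00000062466.1 and ENSBTAT00000060030.1, had log2 fold changes of -1.23 to -1.03. Over the 4 fits that each left out 1 bull, the first and the last of them were called in only 1 and ENSBTAT00000062466.1 in 2, and ENSBTAT00000060030.1 was not called with DESeq2 (adjusted p = 0.0658). None of the 3825 identifiers was paired with a gene name in the sources used here.

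Bull 4 differed from the other bulls across the sequences and not only in the called ones. Across 3469 sequences averaging 10 counts or more, within-bull log2 differences correlated between bulls 1 and 2 at r = 0.330, between bulls 1 and 3 at 0.281 and between bulls 2 and 3 at 0.314. With bull 4 the correlations were -0.0137, -0.0607 and -0.0730 for bulls 1, 2 and 3. These are descriptions across sequences, which share libraries and are not independent replicates.

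**Figure D4:**
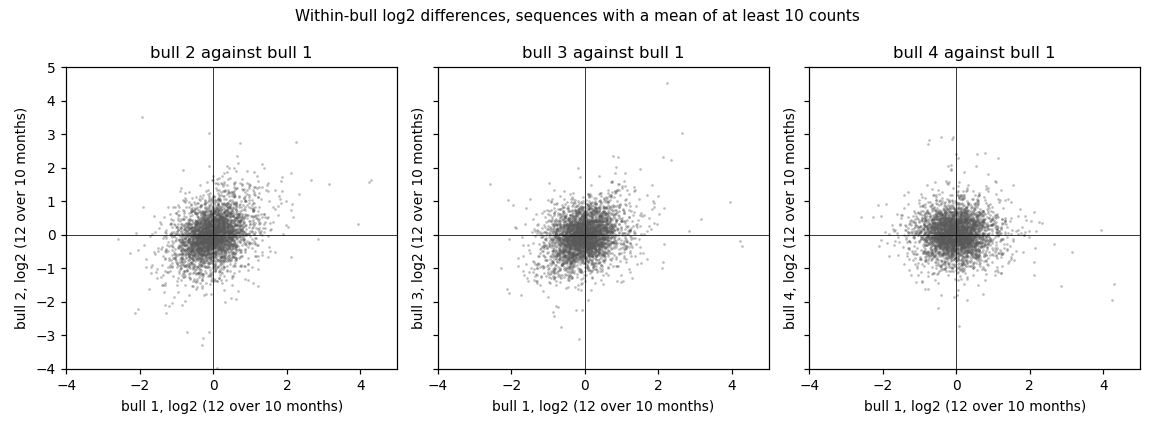
Within-bull log2 differences (12 over 10 months) of 3469 sequences averaging 10 counts or more, bulls 2, 3 and 4 each against bull 1, 1 point per sequence. The clouds of bulls 2 and 3 tilt upwards (r = 0.330 and 0.281) and that of bull 4 does not (r = -0.0137).

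The size of change in the called sequences showed the same contrast. The median within-bull log2 difference of the 13 higher calls was 1.49, 1.45, 1.35 and 0.40 in bulls 1 to 4. For the 11 lower calls it was -1.32, -1.61, -1.38 and -0.20. All 24 had the direction of the call in bulls 1, 2 and 3, and in bull 4, 12 of 13 higher and 8 of 11 lower calls had it. The fit that chose these sequences included bulls 1 to 4, so the choice favours such agreement in each of them.

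**Figure D5:**
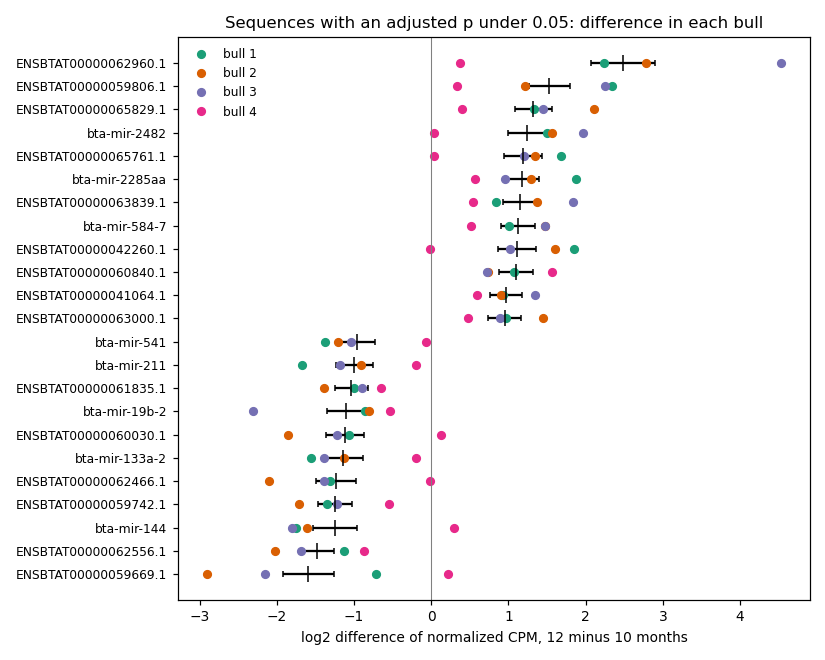
Within-bull log2 difference of normalized CPM (12 minus 10 months) of the 23 named sequences at an adjusted p under 0.05, 1 point per bull, with the fitted log2 fold change and its SE. The points of bull 4 lie nearest to 0 for most sequences, and bta-mir-144 is among those where they cross it.

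With bull 4 left out, 288 of 4612 sequences had an adjusted p under 0.05 (6.24%), 130 higher (2.82%) and 158 lower (3.43%), and all 24 of the calls above were among them, 8.33% of the 288. Leaving out bulls 1, 2 or 3 instead gave 20, 30 and 9 calls. The 288 comprised 22 higher and 64 lower hairpins, 4 higher and 4 lower mature miRNAs, 104 higher and 90 lower other transcripts and no tRNA (4 at an unadjusted p of 0.05). Under the fold threshold 11% passed, 238 higher (5.16%) and 271 lower (5.88%).

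Abundant hairpins show what this meant for single entries. bta-mir-342, the most abundant hairpin, had 8765, 3688, 5572 and 2201 CPM at 10 months and 4273, 2230, 3340 and 3043 CPM at 12 months. It was lower at 12 months in bulls 1, 2 and 3 and higher in bull 4, with a log2 fold change of -0.52 (SE 0.28, adjusted p = 0.570), or -0.83 without bull 4 (SE 0.25, adjusted p = 0.0243). bta-mir-133b, a muscle hairpin, had -0.65 with all bulls (adjusted p = 0.345) and -0.94 without bull 4 (adjusted p = 0.00434). bta-mir-323 had -0.59 (adjusted p = 0.400) and -0.96 (adjusted p = 0.00245). Leaving out another bull brought bta-mir-342, bta-mir-133b and bta-mir-323 to as little as -0.34, -0.40 and -0.36, and none of them was then called.

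The abundant hairpins bta-mir-1468 and bta-mir-2289 had log2 fold changes of -0.18 and -0.28, and without bull 4 of -0.29 (adjusted p = 0.654) and -0.52 (adjusted p = 0.224). Neither passed the adjusted threshold in either fit.

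None of the 5 most abundant mature miRNAs passed the adjusted threshold with all bulls. bta-miR-1307, the most abundant of them, had 402, 67.4, 229 and 246 CPM at 10 months and 254, 62.1, 165 and 294 CPM at 12 months, with a log2 fold change of -0.25 (SE 0.21, adjusted p = 0.784). bta-miR-2901 had -0.67 (adjusted p = 0.246), and -1.03 without bull 4 (adjusted p = 0.000542). bta-miR-2436-3p and bta-miR-2385-3p had -0.18 and 0.26. bta-miR-2285q had 24.8, 20.9, 35.5 and 158 CPM at 10 months and 53.5, 78.2, 26.4 and 80.9 CPM at 12 months. It was higher at 12 months in only 2 of 4 bulls, with 0.38 (adjusted p = 0.771) and, without bull 4, 0.90 (adjusted p = 0.0116). Leaving out another bull gave values down to -0.14, and it was then not called. bta-miR-423-3p, named after its values were seen, had -1.30 (SE 0.38, adjusted p = 0.119) on a mean of 19.8 counts. It was the only mature miRNA called when the miRNA entries were scaled and tested on their own counts (adjusted p = 0.00489). With each class fitted on its own, 43 sequences were called over all classes (0.928%), 20 higher (0.432%) and 23 lower (0.497%).

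Within the tRNA counts, glycine tRNAs made up the largest part, 45.3%, 41.1%, 43.5% and 36.3% in bulls 1 to 4 at 10 months and 46.4%, 42.9%, 46.1% and 33.9% at 12 months. The tRNA of selenocysteine, which inserts that amino acid at a recoded stop codon, was a larger part of the tRNA counts at 12 months in 4 of 4 bulls, with 8.71%, 5.81%, 4.00% and 8.29% at 10 months and 10.6%, 6.86%, 5.06% and 10.4% at 12 months. Glutamate tRNAs were a smaller part in 4 of 4 bulls, with 8.75%, 9.06%, 8.96% and 10.4% at 10 months and 8.26%, 8.27%, 8.75% and 8.73% at 12 months. Both had an exact permutation p of 0.13, the smallest possible, and 0.25 adjusted over 4 amino acids, so neither passed.

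No single tRNA passed the adjusted threshold in the fit of all sequences. GlyCCC, the most abundant, had 5994, 6510, 6984 and 3721 CPM at 10 months and 5400, 5652, 5578 and 4101 CPM at 12 months, with a log2 fold change of -0.13 (SE 0.26, adjusted p = 0.921). GlyTCC had 2469, 2315, 2023 and 2113 CPM at 10 months and 3389, 3407, 3010 and 2389 CPM at 12 months. It was higher in 4 of 4 bulls, with 0.44 (SE 0.25, adjusted p = 0.581). SeC(e)TCA, also higher in 4 of 4 bulls, had 0.34 (SE 0.23, adjusted p = 0.687).

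GlyTCC and SeC(e)TCA were both called when tRNAs were scaled and tested on their own counts (adjusted p = 0.0389 for each), and both turned negative with library totals, at -0.09 and -0.19. LeuAAG and GluTTC, the other abundant tRNAs, had -0.06 and -0.07. SerACT, the tRNA of smallest unadjusted p, had 3.10, 4.29, 3.74 and 3.95 CPM at 10 months and 9.56, 6.38, 3.42 and 8.31 CPM at 12 months. It was higher in 3 of 4 bulls, with 0.82 (SE 0.30, adjusted p = 0.270). AlaCGC and SerAGA had -0.33 and 0.54 with adjusted p of 0.627 and 0.632.

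Groups of related hairpins are set beside the shares that passed the fold threshold over all sequences, 3.78% higher and 3.22% lower, and over all hairpins, 3.89% higher and 7.54% lower. Without bull 4 these shares were 5.16% and 5.88% over all sequences and 4.90% and 13.3% over all hairpins, and 2.76% of hairpins were higher and 8.04% lower at an adjusted p under 0.05. Of the 101 members of mir-2284 and mir-2285, 7 were higher and 6 lower under the fold threshold, 54 had positive and 47 negative values, and the median log2 fold change was 0.07, against -0.00 over all sequences. Without bull 4 they were 10 and 11, with 5 higher and 2 lower at an adjusted p under 0.05. Of 16 hairpins of mir-17-92 and its paralogs, 3 were lower and none higher (median -0.09), and without bull 4 5 were lower, 2 of them at an adjusted p under 0.05. Those 3 were bta-mir-19b-2, bta-mir-106a and bta-mir-93, the last with -0.71 (SE 0.27, adjusted p = 0.283).

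The let-7 family, which is common in differentiated tissues, had 1 of 13 hairpins higher, bta-let-7c with 0.62 (SE 0.26, adjusted p = 0.369), and a median of 0.11. Without bull 4 none passed and the median was 0.02, and the 13 include bta-let-7a-3p, a mature arm at 0 to 1 counts. The family of mir-34 and mir-449 had 1 of 7 higher, bta-mir-34b with 0.60 (SE 0.28, adjusted p = 0.462), and a median of 0.12, but without bull 4 it had 2 lower, none higher and a median of 0.02. The mir-302 and mir-371 clusters, known from pluripotent cells, and the mir-10, mir-99 and mir-125 families had no hairpin past the fold threshold among 6 and 8, with medians of 0.05 and -0.18. Without bull 4, 1 of the 6 was higher and 2 of the 8 were lower. bta-let-7c held 22 to 85 counts per library and bta-mir-34b held 11 to 32.

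bta-mir-202, a hairpin known from the gonads, had 9.58, 9.89, 6.14 and 6.21 CPM at 10 months and 6.02, 3.69, 3.08 and 5.44 CPM at 12 months. It was lower in 4 of 4 bulls and the ages did not overlap. Its log2 fold change was -0.81 (SE 0.27, adjusted p = 0.204), and -1.01 without bull 4 (adjusted p = 0.0289).

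Marker hairpins of other cells were examined beside these results. The median log2 fold change over all hairpins was itself negative, at -0.05 with all bulls and -0.12 without bull 4. All 5 white blood cell hairpins had negative fold changes, with a median of -0.36 and none past the fold threshold, or 1 of 5 lower without bull 4. The sums of that list were 254, 179, 274 and 138 CPM at 10 months and 209, 124, 168 and 166 CPM at 12 months, lower at 12 months in bulls 1, 2 and 3. The epithelial list had a median of -0.24, with 5 of 6 negative and 1 lower under the fold threshold, bta-mir-429, at -0.76 (SE 0.24, adjusted p = 0.169). Without bull 4 bta-mir-429 had -1.13 (adjusted p = 8.82e-05), and 2 of the 6 were lower at both thresholds, the other being bta-mir-200b, where 13.3% of hairpins were lower under the fold threshold and 8.04% at an adjusted p under 0.05.

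The 3 red blood cell hairpins had a median of -0.16, and bta-mir-144 made up most of their sum of 877, 185, 559 and 195 CPM at 10 months and 272, 66.1, 168 and 243 CPM at 12 months. The muscle list had 2 of 9 lower, bta-mir-133a-2 and bta-mir-133b, with a median of -0.05, and 3 of 9 without bull 4 at both thresholds, against the same 13.3% and 8.04% of hairpins, with bta-mir-133a-1 as the third. The stromal list went in both directions, with bta-mir-145 higher in 4 of 4 bulls (0.60, SE 0.25, adjusted p = 0.351, and 0.77, adjusted p = 0.0292, without bull 4) and bta-mir-143 lower (-0.71, SE 0.27, adjusted p = 0.289). The within-bull log2 differences of bta-mir-145 were 0.10, 1.66, 0.57 and 0.13 in bulls 1 to 4, and leaving out 1 bull gave values down to 0.26. With library totals bta-mir-145 stood at 0.08. The part of these cells in the differences between the ages was not tested.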

How the data were processed

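Small RNA libraries of spermatozoa from 4 bulls at 10 and 12 months were analysed. The authors trimmed reads and aligned them to a reference assembled from bovine miRNA, tRNA and further non-coding sequences, with Trimmomatic 0.36 and Bowtie 1.2.2 per the submitters' processing notes, and deposited raw counts of reads per sequence. The genome build and the handling of reads with several matches are not given in the sources used here. A lysis step against somatic cells stands in the study's methods and not in the deposited protocol. The authors' scaled table and their comparisons of other ages (fold changes and p-values from DESeq) were not used.

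Sequences with at least 1 count were tested with edgeR 4.0.16 (R 4.3.3), TMM and the bull as a block. The SE was taken as the log2 fold change divided by the square root of F, without its sign. Within-bull log2 differences used normalized CPM plus 0.5. Shares were tested in Python 3.11.15 with exact sign permutations within bulls. Classes were read from the names, by which 2 let-7a arms counted as hairpins and 1 undetermined anticodon as a tRNA.

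Libraries of a bull come from the same animal. Their deviations from the age means correlated at 0.296 to 0.490 (4 pairs, median 0.395), against -0.350 to 0.137 for different bulls (12 pairs, median -0.177). The age means were taken over the same 4 bulls. Positive values within bulls therefore push those of different bulls below 0 on average, which widens the contrast. No libraries were duplicates.

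The names printed follow 1 rule. It takes up to 12 higher and 12 lower calls by smallest p, the 8 miRNAs and 4 tRNAs of smallest p with a mean of at least 10 counts, the 5 most abundant sequences of each class and the 2 most abundant members of each list. Copies and neighbours of called hairpins were added, and 798 of 811 hairpins and none of 3825 Ensembl transcripts matched RefSeq's ARS-UCD2.0 table. The members, lists and tests were chosen with earlier results of these data known. The alternatives were DESeq2 1.42.0 and its size factors, library totals, filterByExpr, at least 10 counts over the libraries, no block, all 12 libraries, no 10 most abundant sequences, each class on its own, and each bull left out. Amplified reads carried no molecular identifiers, so floors cover counting error only. The edgeR script was tested on simulated counts.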

Additional observations from a re-analysis of the deposited data

Results flagged for a closer look

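In 12 of 166 groups of 4 libraries 1 library lay far from the other 3, where chance gives about 1 in 20. The groups share the same libraries and are not independent, so no excess over chance can be read from this count. Bull 4 was the distant library in 5 of the 12, 3 of them at 10 months, and bull 1 in another 5. At 10 months bull 4 stood high for the share of ENSBTAT00000060546.1, at 40.1% against 8.93% to 14.2% in the other bulls, for bta-mir-2285aa, at 64.6 CPM against 18.8 to 24.6, and for bta-miR-2285q, at 158 CPM against 20.9 to 35.5. At 12 months bull 4 stood high for ENSBTAT00000060840.1, at 32.0 CPM against 10.6 to 12.7, and low for GlyCCC, at 4101 CPM against 5400 to 5652.

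Bull 1 was the distant library at both ages for ENSBTAT00000041064.1, at 23.9 CPM against 5.61 to 8.40 at 10 months and at 46.0 CPM against 12.1 to 16.1 at 12 months. It was also high for bta-mir-449b at 10 months, at 10.7 CPM against 6.90 to 7.21. At 12 months it was high for bta-mir-133a-1, at 29.7 CPM against 10.6 to 13.8, and for bta-mir-584-2, at 16.6 CPM against 10.1 to 11.

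Bull 3 was low for ENSBTAT00000065829.1 at 12 months, at 94.5 CPM against 151 to 163. Bull 2 was low for bta-mir-584-5 at 12 months, at 5.71 CPM against 14.7 to 16.1.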

How the results depend on the processing

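The number of calls and their split between higher and lower depended on the processing. None of the 23 named calls changed sign where an alternative gave it a value, which their choice by the main fit favours. DESeq2 gave no adjusted p for 3 of them. At an adjusted p under 0.05, edgeR called 13 higher and 11 lower sequences. It called 2 and 180 with library totals, and 0 and 1 with filterByExpr (414, or 11.1%, at an unadjusted p of 0.05). Calls were 6 and 3 with at least 10 counts in total and 10 and 3 with all 12 libraries. With each class on its own they were 20 and 23. Without the replicate block edgeR called 0 and 0 (258, or 5.57%, at an unadjusted p of 0.05). DESeq2 called 14 and 11, and only 16 of these 25 were among the 24 calls of edgeR. With 1 bull left out, the higher calls ranged from 6 to 130 and the lower calls from 3 to 158, the most without bull 4 and the fewest without bull 3. Under the fold threshold, 175 higher and 149 lower became 12 and 1202 with library totals, 99 and 84 with DESeq2, and 148 to 238 and 126 to 271 with 1 bull left out. Without the block they were 121 and 119. Without the 10 most abundant sequences the tRNA share changed direction, from -0.798 to 0.365 percentage points. The mean differences of the other class shares kept their sign. With 4 bulls the exact tests cannot go below p = 0.13, and few counts limit mature miRNAs.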
